A study of Arabidopsis thaliana with 11 samples.

Results

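A set of 40 genes of the core cell cycle machinery was followed in *Arabidopsis* roots of the Columbia-0 wild type (WT) and of plants that overexpress the brassinosteroid receptor BRL3. The rule named them by gene identity, with no measured value in it, as the A-, B- and D-type cyclins, the CDKA and CDKB kinases, the 7 KIP-related inhibitors (KRP1 to KRP7) and the inhibitors SIM and SMR1. The list holds 40 of the 33341 genes in the count files. Of these 40, 39 passed the filter on low counts, among 20718 genes that did. The remaining one, *CYCD7;1* (AT5G02110), had 0 counts in all 11 samples, which allows at most 3 counts per sample.

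Mature roots of 4 groups were compared by RNAseq. WT and *35S:BRL3* plants (*BRL3ox*) were either watered (control conditions) or left without water for 5 days (drought). Plants were raised for 7 days on plates and 16 days in soil before the treatment, which makes 28 days at harvest, whereas the study's text speaks of plants of 3 weeks. Each group had 3 samples except *BRL3ox* control, for which replicates 1 and 3 were analysed. The overexpressor is a fusion of BRL3 to GFP under the 35S promoter, which is active in most cell types, and the labels name 1 such genotype. No label says that replicates came from separate plantings, so the p-values measure only the spread between these samples.

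Progression through the plant cell cycle is driven by cyclin-dependent kinases (CDKs) that act only when bound to a cyclin. D-type cyclins pair mainly with CDKA to open the way into DNA synthesis, A-type cyclins act from DNA synthesis to mitosis, and B-type cyclins with CDKB kinases act at mitosis. KRP proteins and the SIM and SMR proteins bind these complexes and block them, and are known for their part in leaving division and, for SIM and SMR1, in the switch to endoreduplication, in which DNA is copied without division. In roots, dividing cells are found in the meristem at the tip, in the cambium and in lateral root primordia, so that such transcripts come from a minority of the cells of a mature root.

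Between 18610736 and 22817390 reads per sample were counted on genes. Normalized counts are given as CPM, the counts divided by the TMM-scaled library size, in which 3 counts correspond to between 0.127 and 0.163 CPM. *BRL3* (AT3G13380) was at 59.2 to 64.8 CPM in WT control and 44.8 to 70.8 CPM in WT drought roots, at 974 and 1652 CPM in *BRL3ox* control, and at 2447 to 3180 CPM in *BRL3ox* drought roots, in keeping with every genotype label. Of the markers of shoot tissue, *WUS* and *YAB1* had 0 counts in all samples. The summed level of the 17 shoot and leaf genes, however, was 99.8, 407 and 20.15 CPM in WT control replicates 1, 2 and 3. It was between 21.4 and 203 CPM in the samples of the other groups, so WT control replicate 2 was the highest. The part of shoot tissue in the values below was not tested. In whole roots, fewer cells of a type and less RNA per cell cannot be told apart.

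A gene was called when the false discovery rate (FDR, the Benjamini-Hochberg adjusted p of edgeR's quasi-likelihood test over all 20718 genes) was under 0.05 and the fold change over 1.5. The difference between the drought responses of the genotypes, the interaction, was called at an unadjusted p under 0.0025. Fold changes are on the log2 scale with their standard error (SE).

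The levels of the 39 genes spanned a wide range, which was compared between genes as CPM per kilobase of exon. *CDKA;1* (AT3G48750), the kinase that pairs with D- and A-type cyclins, was the highest at a mean of 59.4 CPM per kilobase over the 11 samples. The mitotic kinase *CDKB2;1* (AT1G76540) followed with 42.1, then *CYCD3;1* (AT4G34160), a D-type cyclin known to respond to cytokinin and brassinosteroid, with 38.4. Within the other families, the highest were *CYCB1;2* (AT5G06150) at 20.09, KRP2 (AT3G50630) at 14.2, *CYCA2;3* (AT1G15570) at 10.9 and SIM (AT5G04470) at 5.87 CPM per kilobase. The lowest of the 39 was an A-type cyclin, AT5G25380, at 0.774 CPM per kilobase. The group means of AT3G48750 lay between 56.4 and 62.7 CPM per kilobase, and those of AT4G34160 between 26.5 and 50.6, so that its place above or below AT1G76540 (39.1 to 43.1) depended on the group.

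**Figure D1:**
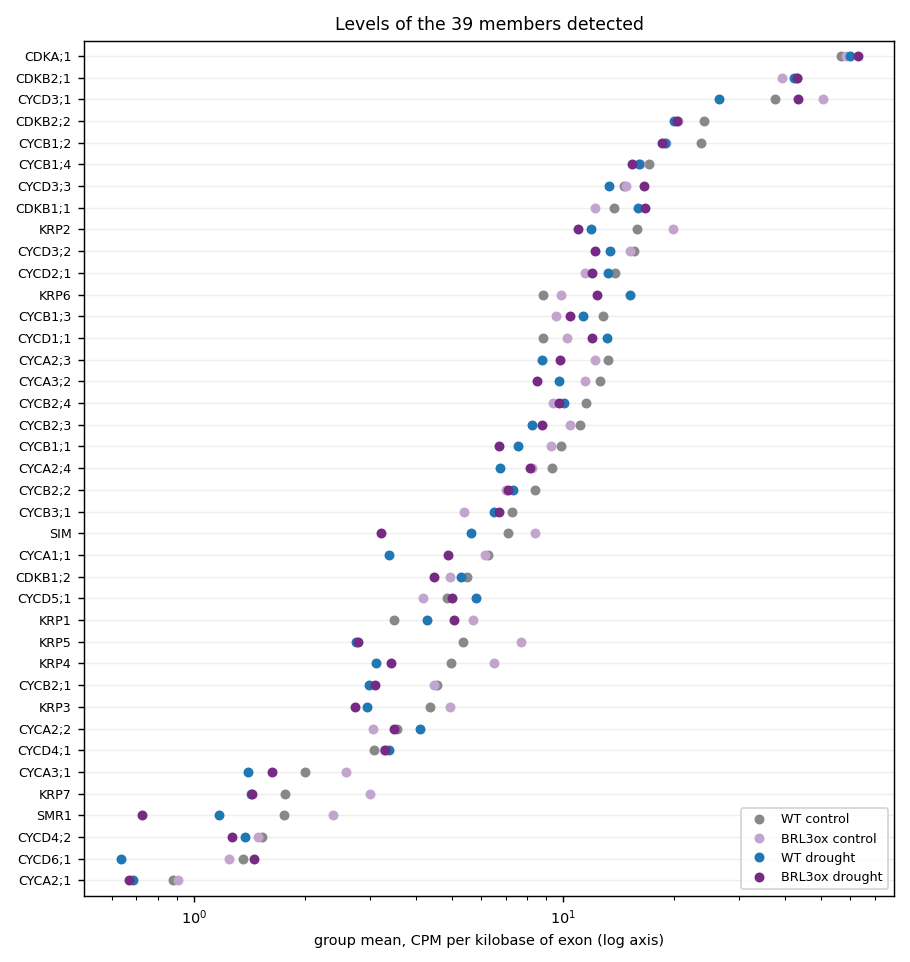
Mean level of the 39 detected genes in each of the 4 groups, as CPM per kilobase of exon on a log axis, sorted by the mean over all samples. AT3G48750 was the highest in every group, at 56.4 to 62.7, and the points of SIM, SMR1, KRP5 and *CYCD6;1* (AT4G03270) spread widely while those of the CDKs lie close together.

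The promoters of the B-type cyclins are shown because they hold the element by which this family is best known, the mitosis-specific activator (MSA) core AACGG, bound by 3-repeat MYB proteins that time mitotic transcription. In the 200 bases before the annotated gene start, on either strand, AACGG occurred in 17.4% of 27443 protein-coding genes and in 14 of the 40 members, among them 6 of the 9 B-type cyclins. Each of these 6 had at least 3 matches, a number found in 0.492% of all promoters. Among the other members, only KRP1 and KRP7 had as many. The sequences are from RefSeq, build TAIR10.1, read 5′ to 3′ on the strand of the gene, and the capitals mark AACGG or its reverse complement CCGTT.

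*CYCB1;1* (AT4G37490), chr4:17624309-17624508, minus strand: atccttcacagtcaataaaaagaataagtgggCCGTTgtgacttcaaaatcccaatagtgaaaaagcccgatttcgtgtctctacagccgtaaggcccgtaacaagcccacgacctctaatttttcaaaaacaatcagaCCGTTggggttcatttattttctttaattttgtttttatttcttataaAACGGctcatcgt
AT5G06150, chr5:1861704-1861903, minus strand: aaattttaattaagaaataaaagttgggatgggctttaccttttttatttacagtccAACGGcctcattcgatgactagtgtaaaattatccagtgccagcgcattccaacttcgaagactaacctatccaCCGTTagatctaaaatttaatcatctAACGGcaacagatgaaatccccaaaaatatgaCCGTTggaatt
*CYCB2;1* (AT2G17620), chr2:7663855-7664054, plus strand: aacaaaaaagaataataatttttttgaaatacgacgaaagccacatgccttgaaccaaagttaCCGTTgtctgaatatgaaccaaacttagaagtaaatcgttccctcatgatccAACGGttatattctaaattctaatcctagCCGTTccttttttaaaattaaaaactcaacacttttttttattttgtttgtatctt

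The other motifs searched were the E2F site TTTNNCGC, bound by factors of the G1 to S transition, the abscisic acid response core ACGTG, and the brassinosteroid response elements CGTGTG and CGTGCG, which can overlap ACGTG by 4 bases. They occurred in 4.83%, 19.8% and 5.71% of all promoters and in 2, 8 and 2 of the 40 members. The E2F site was found in the D3 cyclins AT5G67260 and AT3G50070, and the brassinosteroid elements in KRP2 and the kinase AT2G38620. KRP2 is shown because it held 3 of the 4 kinds, and KRP5 (AT3G24810), which had the largest drought change of the KRPs, because its window held none of these letters, as was also the case for KRP4, KRP6, SIM and SMR1. A match is a string of letters, not a shown binding site. Capitals in KRP2 mark its matches, on either strand, to the abscisic acid core, the MSA core and the first of the brassinosteroid elements, and KRP5 has no capitals.

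KRP2 (AT3G50630), chr3:18800106-18800305, plus strand: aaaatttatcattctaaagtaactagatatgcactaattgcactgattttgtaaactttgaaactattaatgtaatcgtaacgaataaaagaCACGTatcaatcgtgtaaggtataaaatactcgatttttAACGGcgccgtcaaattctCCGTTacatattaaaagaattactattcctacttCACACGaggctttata
KRP5 (AT3G24810), chr3:9060636-9060835, plus strand: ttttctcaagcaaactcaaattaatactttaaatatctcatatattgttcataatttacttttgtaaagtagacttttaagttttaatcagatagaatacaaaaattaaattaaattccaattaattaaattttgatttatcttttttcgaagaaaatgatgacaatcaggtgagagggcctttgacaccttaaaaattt

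The first question was how the machinery changed with drought in each genotype. In WT roots, 3 cyclins and 2 inhibitors fell (the cyclins *CYCA1;1*, AT1G44110, with AT1G15570 and AT2G17620, and the inhibitors KRP4 and KRP5) and the inhibitor KRP6 rose. In *BRL3ox* roots, 5 inhibitors fell (KRP2, KRP4, KRP5, SIM and SMR1) and no cyclin or CDK was called. KRP4 and KRP5 fell in both genotypes. The WT calls were 6 of 39 genes (15.4%), where 12.4% of all genes were called, with 1 higher (7.54% of all genes) and 5 lower (4.84% of all genes). In *BRL3ox* roots the calls were 5 of 39 (12.8%), where 16.1% of all genes were called, with 0 higher (9.14% of all genes) and 5 lower (6.98% of all genes). Both shares in either direction were close to those of all genes, so the total number of calls does not set the members apart. By direction, 5 of 39 (12.8%) were called lower in each genotype, a larger share than among all genes. The share called higher was smaller than among all genes in each genotype. Whether this lean exceeds chance was not tested. The calls in *BRL3ox* roots all fell among the 9 inhibitors (5 of 9), while 0 of 30 cyclins and CDKs were called there by edgeR's quasi-likelihood test, 6 of them at an unadjusted p under 0.05. Over all 39 members, 14 (35.9%) had an unadjusted p under 0.05 in *BRL3ox* roots, against 35.1% of all genes, and 16 (41.0%) in WT roots, against 33.6% of all genes. DESeq2 and edgeR's likelihood ratio test called none of the 30 cyclins and CDKs in *BRL3ox* roots either, and each called 7 inhibitors, KRP3 and KRP7 being added.

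The median log2 fold change in drought was -0.27 over the 39 members in WT roots, with 31 lower, and -0.15 in *BRL3ox* roots, with 24 lower, against medians of -0.02 over all genes in each genotype. The median of the members was -0.15 in WT roots without WT control replicate 2, and -0.04 in *BRL3ox* roots without *BRL3ox* drought replicate 2. The WT calls depended on single libraries. Their number fell to 2 without WT control replicate 1, 1 without WT control replicate 2, and 3 without WT drought replicate 2 or 3, and reached 9 without WT control replicate 3. In *BRL3ox* roots it was 3 without control replicate 1, 2 without control replicate 3, each leaving a lone control sample that is assumed to vary like the other groups, and 3 without drought replicate 1.

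**Figure D2:**
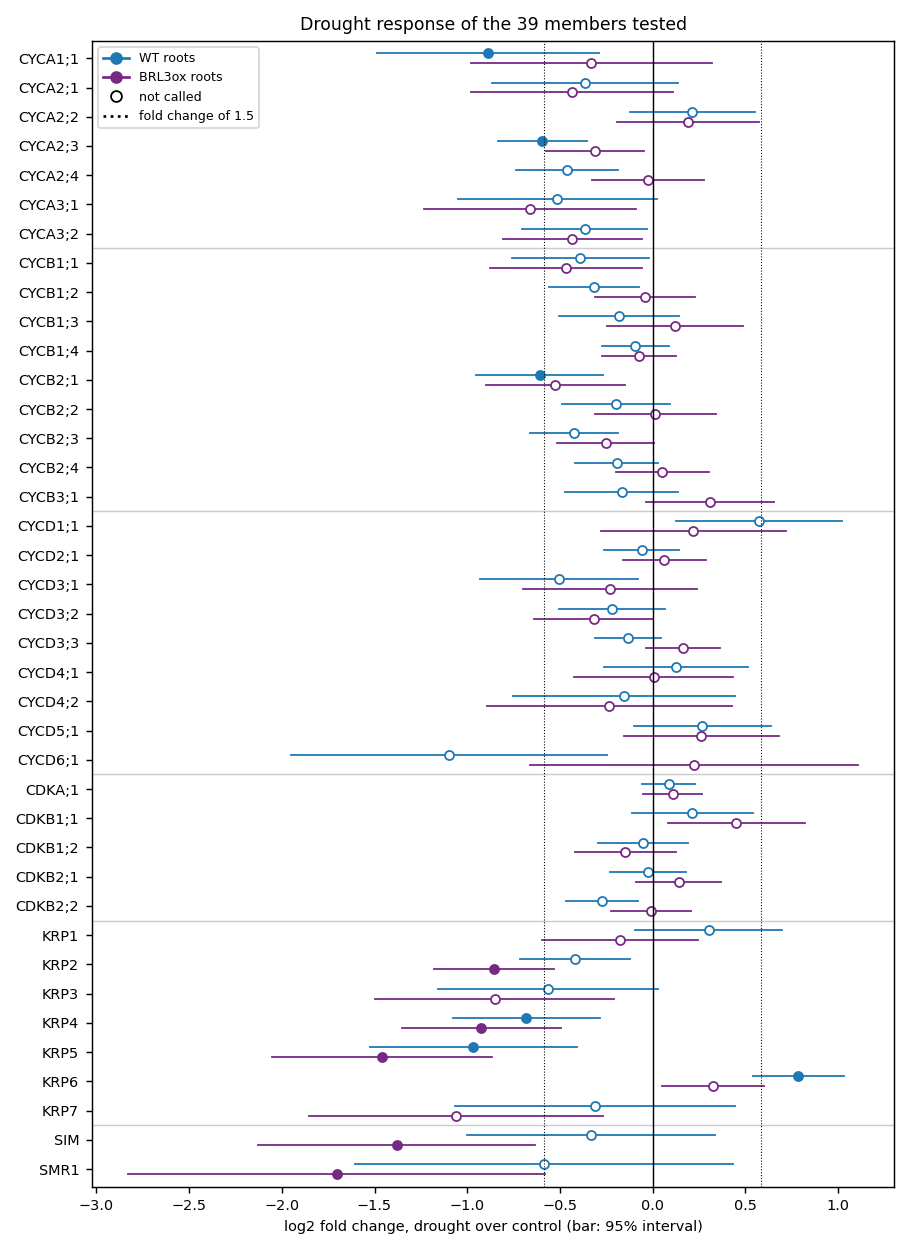
Log2 fold change of drought over control for the 39 genes tested, in WT (blue) and *BRL3ox* roots (purple), with 95% intervals from edgeR, filled where called and grouped by family. Filled points lie among cyclins and KRPs in WT roots and only among KRPs, SIM and SMR1 in *BRL3ox* roots, where SMR1 had the largest change at -1.70.

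Among the A-type cyclins, *CYCA2;3*, which limits endoreduplication together with CDKB1 kinases, had the smallest p in either genotype. It was at 27.1, 29.4 and 24.5 CPM in WT control, 26.2 and 23.5 in *BRL3ox* control, 19.1, 19.2 and 15.3 in WT drought, and 19.2, 20.4 and 20.5 CPM in *BRL3ox* drought samples. All drought samples lay below all control samples of both genotypes. The change was -0.60 (SE 0.11, edgeR FDR = 0.00520) in WT roots, which is 1.51-fold lower, and -0.31 (SE 0.12, edgeR FDR = 0.0900) in *BRL3ox* roots. The WT call was lost as the value came under 1.5-fold with RLE scaling (-0.58), with DESeq2 (-0.58), without WT control replicate 2 (-0.52) and without WT drought replicate 3 (-0.50).

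*CYCA1;1*, a mitotic A-type cyclin, was at 12.4, 15.1 and 6.64 CPM in WT control, 13.1 and 9.28 in *BRL3ox* control, 5.75, 7.38 and 5.40 in WT drought, and 8.97, 9.83 and 7.85 CPM in *BRL3ox* drought samples. WT control replicate 3 lay within the range of the WT drought samples, so the WT groups overlap. The WT change was -0.89 (SE 0.27, edgeR FDR = 0.0443), and leaving out each sample in turn kept this call in 1 of 11 fits, the one without WT control replicate 3. In *BRL3ox* roots the value was -0.33 (SE 0.29, edgeR FDR = 0.461). The related *CYCA2;4* (AT1G80370) was at 15.7, 18.4 and 16.99 CPM in WT control, 15.3 and 14.9 in *BRL3ox* control, 13.1, 12.4 and 11.7 in WT drought, and 13.6, 13.2 and 17.8 CPM in *BRL3ox* drought samples. The WT groups did not overlap, while *BRL3ox* drought replicate 3 lay among the control samples. It passed the FDR in WT roots but not the fold change, at -0.46 (SE 0.12, edgeR FDR = 0.0275). *CYCA3;1* (AT5G43080), of the S-phase subgroup, was at 3.26, 3.81 and 2.40 CPM in WT control, 4.46 and 3.71 in *BRL3ox* control, 2.83, 2.13 and 1.67 in WT drought, and 2.21, 2.63 and 2.90 CPM in *BRL3ox* drought samples. Its WT groups overlapped, its *BRL3ox* groups did not, and its *BRL3ox* drought value was -0.66 (SE 0.26, edgeR FDR = 0.0945). Over the 7 A-type cyclins, 6 were lower in drought in each genotype, with a median of -0.46 in WT and -0.33 in *BRL3ox* roots.

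The 9 B-type cyclins, which activate CDKs for entry into mitosis, all had a negative drought value in WT roots (median -0.20, -0.31 without WT drought replicate 2), and 1 was called. The called *CYCB2;1* was at 7.67, 7.31 and 7.73 CPM in WT control, 8.00 and 6.84 in *BRL3ox* control, 4.69, 4.16 and 6.05 in WT drought, and 4.87, 4.89 and 5.70 CPM in *BRL3ox* drought samples. No drought sample reached any control sample. The change was -0.61 (SE 0.15, edgeR FDR = 0.0224) in WT and -0.52 (SE 0.17, edgeR FDR = 0.0494) in *BRL3ox* roots, the second being 1.44-fold and so under the fold change threshold. The WT call was lost without WT control replicate 1 or 2 or WT drought replicate 1 or 2. The related *CYCB2;3* (AT1G20610) was at 23.8, 22.0 and 21.1 CPM in WT control, 21.9 and 20.04 in *BRL3ox* control, 19.1, 14.8 and 16.0 in WT drought, and 16.9, 17.4 and 18.4 CPM in *BRL3ox* drought samples. Its drought samples too were all below its control samples. It was lower in WT drought by less than 1.5-fold, at -0.42 (SE 0.11, edgeR FDR = 0.0214), with 17.8% of its sequence shared with another locus, AT1G20590, so that its counts are uncertain. In *BRL3ox* roots the family was spread on both sides of 0, with 5 lower, 4 higher and a median of -0.04, which was 0.02 without *BRL3ox* control replicate 1.

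*CYCB1;2*, the most abundant B-type cyclin, was at 45.6, 46.2 and 37.3 CPM in WT control, 37.6 and 31.9 in *BRL3ox* control, 36.5, 36.5 and 30.5 in WT drought, and 33.0, 33.6 and 34.8 CPM in *BRL3ox* drought samples. WT control replicates 1 and 2 stood above all other samples. Reads could not be assigned with certainty over 13.1% of its sequence, which AT1G34460 shares. *CYCB1;1*, a widely used marker of cells before mitosis, was at 15.9, 18.1 and 14.3 CPM in WT control, 16.8 and 13.4 in *BRL3ox* control, 14.7, 12.6 and 9.50 in WT drought, and 12.1, 9.92 and 10.7 CPM in *BRL3ox* drought samples. Its drought values were -0.39 (SE 0.17, edgeR FDR = 0.131) in WT and -0.47 (SE 0.19, edgeR FDR = 0.0999) in *BRL3ox* roots.

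None of the 9 D-type cyclins tested was called with drought in either genotype by edgeR's quasi-likelihood test, with 3 in WT and 0 in *BRL3ox* roots at an unadjusted p under 0.05. DESeq2 called 2 of them in WT roots (AT1G70210 and AT4G03270) and edgeR's likelihood ratio test 1 (AT4G03270), and neither called one in *BRL3ox* roots. *CYCD3;1* was at 71.5, 85.5 and 53.8 CPM in WT control, 104 and 85.1 in *BRL3ox* control, 38.9, 60.7 and 49.2 in WT drought, and 75.4, 91.4 and 75.9 CPM in *BRL3ox* drought samples. The WT control and drought samples overlapped, and all *BRL3ox* drought samples lay above all WT drought samples. *CYCD6;1*, which drives the formative division of the ground tissue under SHR and SCR, was at 2.21, 2.83 and 1.52 CPM in WT control, 2.20 and 1.81 in *BRL3ox* control, 0.656, 1.77 and 0.648 in WT drought, and 2.61, 2.45 and 1.96 CPM in *BRL3ox* drought samples. WT drought replicate 2 was well above the other WT drought samples, and the WT value was -1.10 (SE 0.39, edgeR FDR = 0.0714), which was called without WT control replicate 3 (-1.30) or without WT drought replicate 2 (-1.74). On the opposite strand, AT4G03260 overlaps 19.4% of this gene.

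In *BRL3ox* roots the smallest p of the D-type cyclins was that of *CYCD3;2* (AT5G67260), which acts redundantly with the other D3 cyclins. It was at 26.6, 24.9 and 27.1 CPM in WT control, 26.4 and 24.8 in *BRL3ox* control, 27.0, 18.599 and 21.9 in WT drought, and 22.3, 18.2 and 21.0 CPM in *BRL3ox* drought samples. The *BRL3ox* drought samples were all below the *BRL3ox* control samples and the WT groups overlapped, and the *BRL3ox* value was -0.32 (SE 0.14, edgeR FDR = 0.143).

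None of the 5 CDKs was called by edgeR's quasi-likelihood test, DESeq2 or the likelihood ratio test, with 1 in each genotype at an unadjusted p under 0.05. *CDKA;1* was at 87.8, 83.2 and 82.6 CPM in WT control, 87.9 and 86.6 in *BRL3ox* control, 87.2, 89.8 and 92.3 in WT drought, and 93.6, 94.4 and 94.0 CPM in *BRL3ox* drought samples, a coefficient of variation of 4.67% over all 11 samples. The 95% interval of its drought change was -0.06 to 0.24 in WT and -0.06 to 0.28 in *BRL3ox* roots, so that a change of 1.5-fold lies outside both. Of the mitotic kinases, *CDKB2;2* (AT1G20930) was at 34.7, 33.4 and 32.6 CPM in WT control, 30.0 and 27.1 in *BRL3ox* control, 30.6, 28.1 and 24.7 in WT drought, and 28.5, 28.6 and 28.0 CPM in *BRL3ox* drought samples. The WT groups did not overlap and the *BRL3ox* groups did, and the WT value was -0.27 (SE 0.09, edgeR FDR = 0.0519).

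*CDKB1;1* (AT3G54180), which restrains endoreduplication, was at 21.2, 18.55 and 17.05 CPM in WT control, 18.7 and 14.9 in *BRL3ox* control, 19.0, 23.3 and 23.6 in WT drought, and 27.3, 21.6 and 19.96 CPM in *BRL3ox* drought samples. The WT groups overlapped, and all *BRL3ox* drought samples lay above the *BRL3ox* control samples, with a value of 0.45 (SE 0.17, edgeR FDR = 0.0783). Its close relative *CDKB1;2* (AT2G38620) was at 8.61, 8.10 and 8.55 CPM in WT control, 7.95 and 7.22 in *BRL3ox* control, 7.42, 8.94 and 8.05 in WT drought, and 6.94, 7.06 and 6.55 CPM in *BRL3ox* drought samples. It was lower in *BRL3ox* drought than in all WT drought samples, a genotype difference in drought of -0.25 (SE 0.11, edgeR FDR = 0.210), and AT2G38630 overlaps 14.7% of it on the opposite strand. For AT1G20930, AT1G20925 overlaps 11% on the opposite strand.

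**Figure D3:**
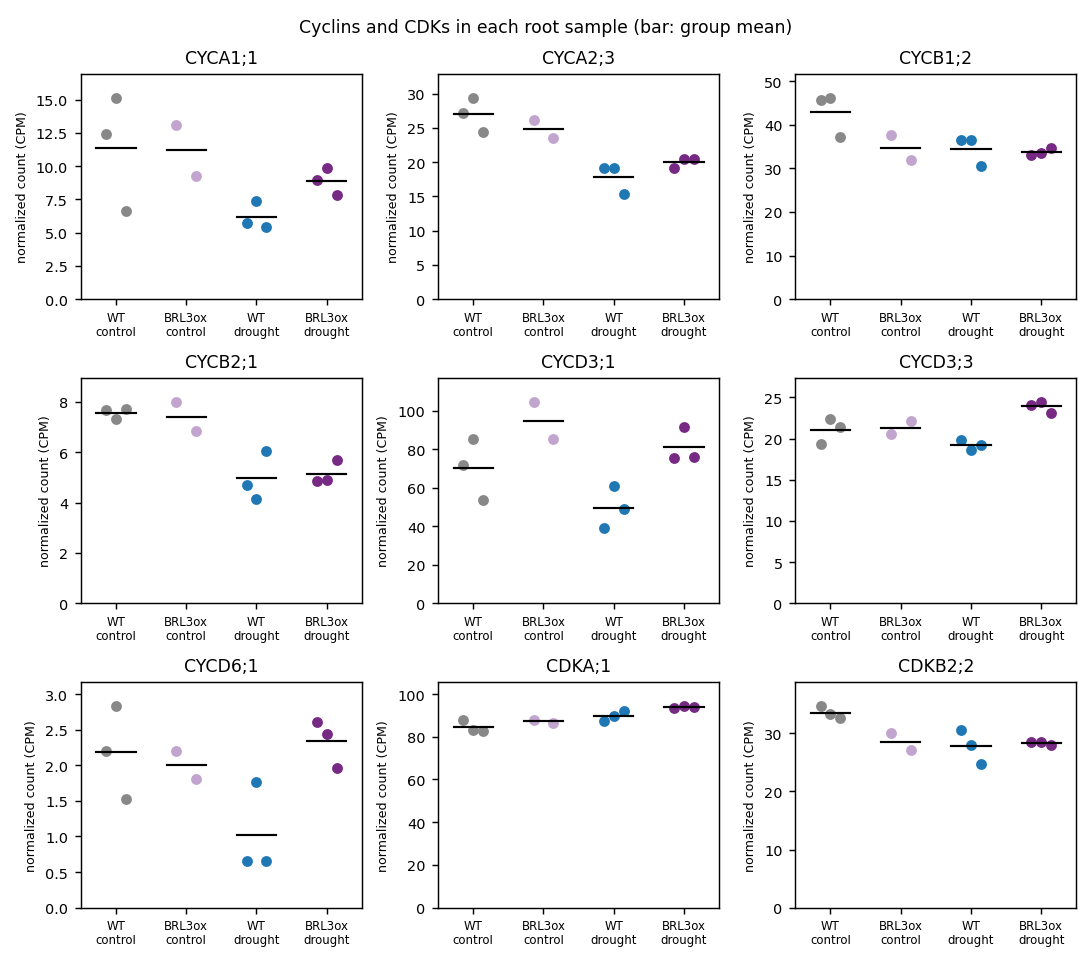
Normalized counts (CPM) of 7 cyclins and 2 CDKs in each sample, with 1 point per sample and a bar at the group mean, each axis starting at 0. The AT1G15570 and AT2G17620 points of both drought groups lie below those of the control groups, AT4G34160 is higher in *BRL3ox* drought (75.4 to 91.4) than in WT drought roots (38.9 to 60.7), and AT3G48750 is nearly level.

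Inhibitors were called in both genotypes. KRP5 (chr3:9060836-9062003, plus strand, 3 exons) was at 5.25, 6.86 and 3.70 CPM in WT control, 8.38 and 6.75 in *BRL3ox* control, 3.28, 2.13 and 2.70 in WT drought, and 2.21, 3.04 and 2.99 CPM in *BRL3ox* drought samples. Control and drought did not overlap in either genotype. It fell by 0.97 on the log2 scale (SE 0.25, edgeR FDR = 0.0249) in WT and by 1.46 (SE 0.27, edgeR FDR = 0.00449) in *BRL3ox* roots, which are 1.95-fold and 2.75-fold. The WT call was lost without WT control replicate 1 or 2 or WT drought replicate 2 or 3. KRP5 has been tied to cell elongation and endoreduplication in root cells.

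KRP4 (AT2G32710, chr2:13873362-13876737, plus strand) was at 11.7, 12.4 and 11.8 CPM in WT control, 14.8 and 16.2 in *BRL3ox* control, 7.31, 6.70 and 8.32 in WT drought, and 5.77, 10.15 and 8.65 CPM in *BRL3ox* drought samples. Every drought sample was below every control sample. KRP4 fell by 0.68 (SE 0.18, edgeR FDR = 0.0258) in WT and by 0.92 (SE 0.19, edgeR FDR = 0.00808) in *BRL3ox* roots, on the log2 scale. Its WT call was lost without WT control replicate 1 or 2 or WT drought replicate 1 or 2. The gene AT2G32720 runs on the opposite strand over 36.9% of its exons, and the strand setting of the counting is not stated. Depending on that setting, reads in this stretch may have been set aside as ambiguous or given to the wrong gene, so the counts of KRP4 are uncertain there.

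KRP2, which acts on CDKA complexes and is known for restraining lateral root initiation, was at 16.4, 20.6 and 16.8 CPM in WT control, 23.3 and 21.7 in *BRL3ox* control, 11.6, 12.9 and 15.8 in WT drought, and 11.4, 13.3 and 12.6 CPM in *BRL3ox* drought samples. The *BRL3ox* control samples were the highest and no drought sample reached a control sample. The change was -0.86 (SE 0.15, edgeR FDR = 0.00319) in *BRL3ox* roots, which is 1.81-fold lower, and -0.42 (SE 0.13, edgeR FDR = 0.0520) in WT roots.

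KRP6 (AT3G19150, chr3:6616330-6617951, minus strand) went the other way. It was at 11.5, 13.9 and 14.8 CPM in WT control, 14.4 and 15.6 in *BRL3ox* control, 23.3, 22.1 and 23.9 in WT drought, and 19.8, 16.8 and 19.6 CPM in *BRL3ox* drought samples. All drought samples lay above all control samples. KRP6 rose 1.72-fold in WT roots (0.78, SE 0.11, edgeR FDR = 0.00160), a call kept in all 11 cases when samples were left out in turn, and its value in *BRL3ox* roots was 0.33 (SE 0.12, edgeR FDR = 0.0872). It was the only inhibitor besides KRP1 with a positive WT value.

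SIM (chr5:1266625-1267416, minus strand, 1 exon), which triggers endoreduplication in trichomes, was at 5.04, 7.31 and 4.47 CPM in WT control, 6.66 and 6.62 in *BRL3ox* control, 6.91, 3.48 and 2.97 in WT drought, and 2.12, 2.91 and 2.62 CPM in *BRL3ox* drought samples. WT drought replicate 1 lay among the control samples, whereas the *BRL3ox* drought samples were below all others. It fell by 1.38 (SE 0.34, edgeR FDR = 0.0160) in *BRL3ox* roots, a 2.60-fold change, and its WT value was -0.33 (SE 0.30, edgeR FDR = 0.481). AT5G04475 overlaps 25.9% of it on the opposite strand.

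SMR1 (AT3G10525, chr3:3281306-3282131, minus strand, 1 exon), a relative of SIM, was at 2.05, 1.55 and 0.762 CPM in WT control, 2.20 and 1.73 in *BRL3ox* control, 1.56, 0.416 and 0.918 in WT drought, and 0.451, 0.738 and 0.608 CPM in *BRL3ox* drought samples. The *BRL3ox* groups did not overlap and the WT groups did. It fell by 1.70 (SE 0.51, edgeR FDR = 0.0361) in *BRL3ox* roots, with a 95% interval of -2.83 to -0.58, and this call was lost in 5 of 11 cases when samples were left out in turn, those without either *BRL3ox* control or any *BRL3ox* drought sample. AT3G10527 overlaps 33.1% of the gene on the opposite strand. The SIM call was lost without *BRL3ox* control replicate 1 or 3 or drought replicate 1, and the KRP4 call in *BRL3ox* roots without control replicate 3, while those of KRP2 and KRP5 were kept in all 11 fits.

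KRP3 and KRP7 were also lower in *BRL3ox* drought than control roots, at -0.85 (SE 0.29, edgeR FDR = 0.0606) and -1.06 (SE 0.36, edgeR FDR = 0.0582), without passing the threshold. The summed level of the 9 inhibitors was 62.4 to 76.0 CPM in WT control, 85.2 and 85.6 CPM in *BRL3ox* control, 56.2 to 65.6 CPM in WT drought, and 52.1 to 58.7 CPM in *BRL3ox* drought samples. The median drought change of the 9 was -0.42 in WT roots, between -0.75 without WT drought replicate 1 and -0.23 without WT drought replicate 2. It was -0.92 in *BRL3ox* roots, between -1.10 and -0.92 whichever sample was removed.

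**Figure D4:**
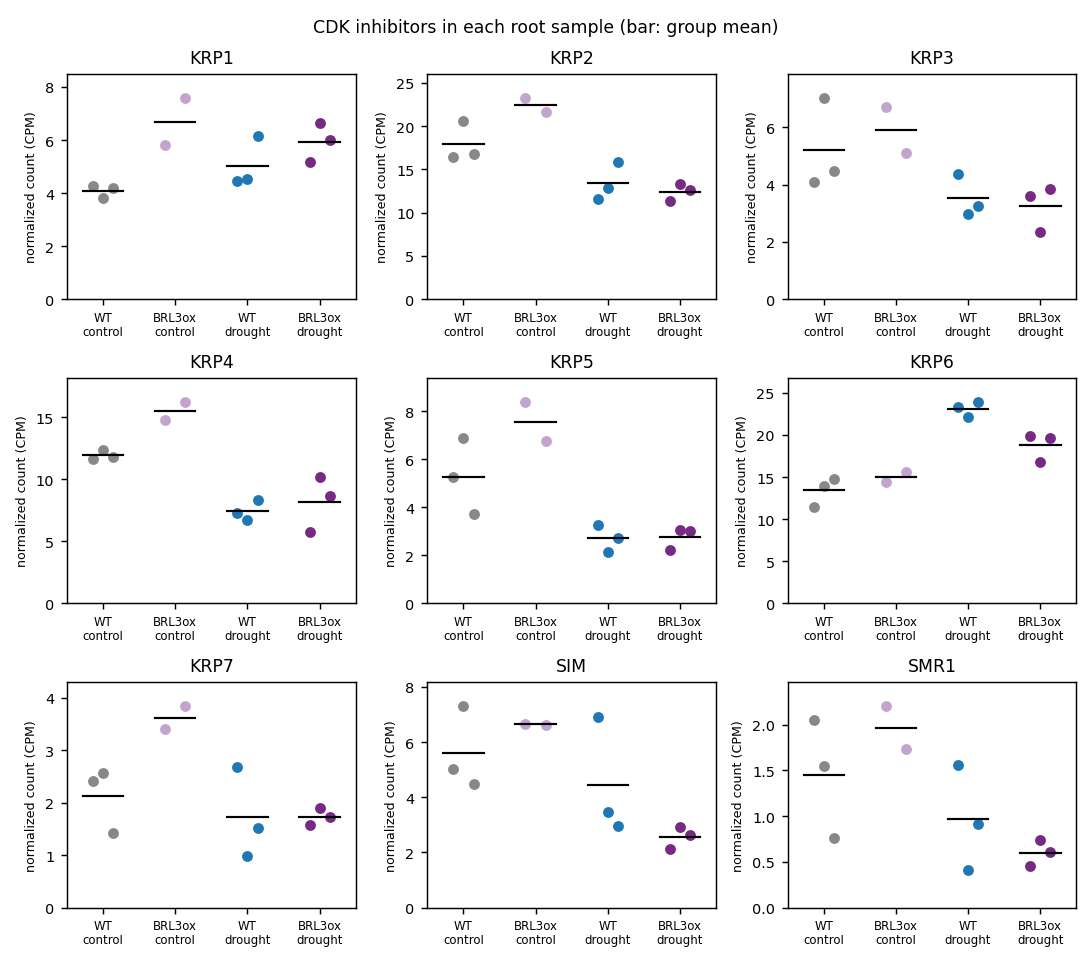
Normalized counts (CPM) of the 9 CDK inhibitors in each sample, with 1 point per sample and a bar at the group mean, each axis starting at 0. The *BRL3ox* control mean is the highest for 8 of the 9 genes, and KRP6 alone has its highest points in WT drought roots (22.1 to 23.9).

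The second question was whether overexpression of the receptor changed these genes. At basal conditions none of the 39 was called by edgeR's quasi-likelihood test, where 0.772% of all genes were. At an unadjusted p under 0.05 there were 7 (17.9%), against 16.0% of all genes. DESeq2 and edgeR's likelihood ratio test each called 1, KRP1 (AT2G23430), an inhibitor that binds CDKA and D-type cyclins. KRP1 was at 4.25, 3.81 and 4.19 CPM in WT control, 5.80 and 7.60 in *BRL3ox* control, 4.44, 4.52 and 6.16 in WT drought, and 5.18, 6.64 and 5.98 CPM in *BRL3ox* drought samples. Both *BRL3ox* control samples were above the WT control samples, a difference of 0.72 (SE 0.19, edgeR FDR = 0.102), and the FDR was 0.0360 in DESeq2.

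The basal values of the families leaned in opposite directions, with no gene called. All 9 values of the B-type cyclins were below 0, with a median of -0.26, a range of -0.44 to -0.03 and 4 at an unadjusted p under 0.05. All 9 values of the inhibitors were above 0, with a median of 0.38, a range of 0.16 to 0.76 and 1 at an unadjusted p under 0.05. The median over all genes was -0.00433. The lean held with RLE scaling, and between 7 and 9 B-type cyclins were lower, and between 8 and 9 inhibitors higher, whichever sample was removed. The B-type cyclin with the smallest p was *CYCB3;1* (AT1G16330), at 15.3, 15.0 and 13.8 CPM in WT control, 11.2 and 10.5 in *BRL3ox* control, 11, 15.5 and 12.8 in WT drought, and 15.1, 11.7 and 13.7 CPM in *BRL3ox* drought samples. Its control groups did not overlap, its drought groups did, and the basal difference was -0.44 (SE 0.16, edgeR FDR = 0.202).

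In the other families, *CYCD2;1* (AT2G22490), a D-type cyclin known from its response to sucrose, was at 24.2, 23.7 and 24.3 CPM in WT control, 20.22 and 19.8 in *BRL3ox* control, 25.6, 21.6 and 22.0 in WT drought, and 22.7, 20.7 and 19.4 CPM in *BRL3ox* drought samples. The *BRL3ox* control samples were below all WT control samples, a difference of -0.26 (SE 0.10, edgeR FDR = 0.232). AT1G20930 likewise had both *BRL3ox* control samples below the WT control samples, a difference of -0.24 (SE 0.10, edgeR FDR = 0.268). The A-type cyclin and the SIM family member with the smallest p were AT5G43080, at 0.37 (SE 0.26, edgeR FDR = 0.549), and SMR1, at 0.43 (SE 0.48, edgeR FDR = 0.733), and both had overlapping control groups.

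**Figure D5:**
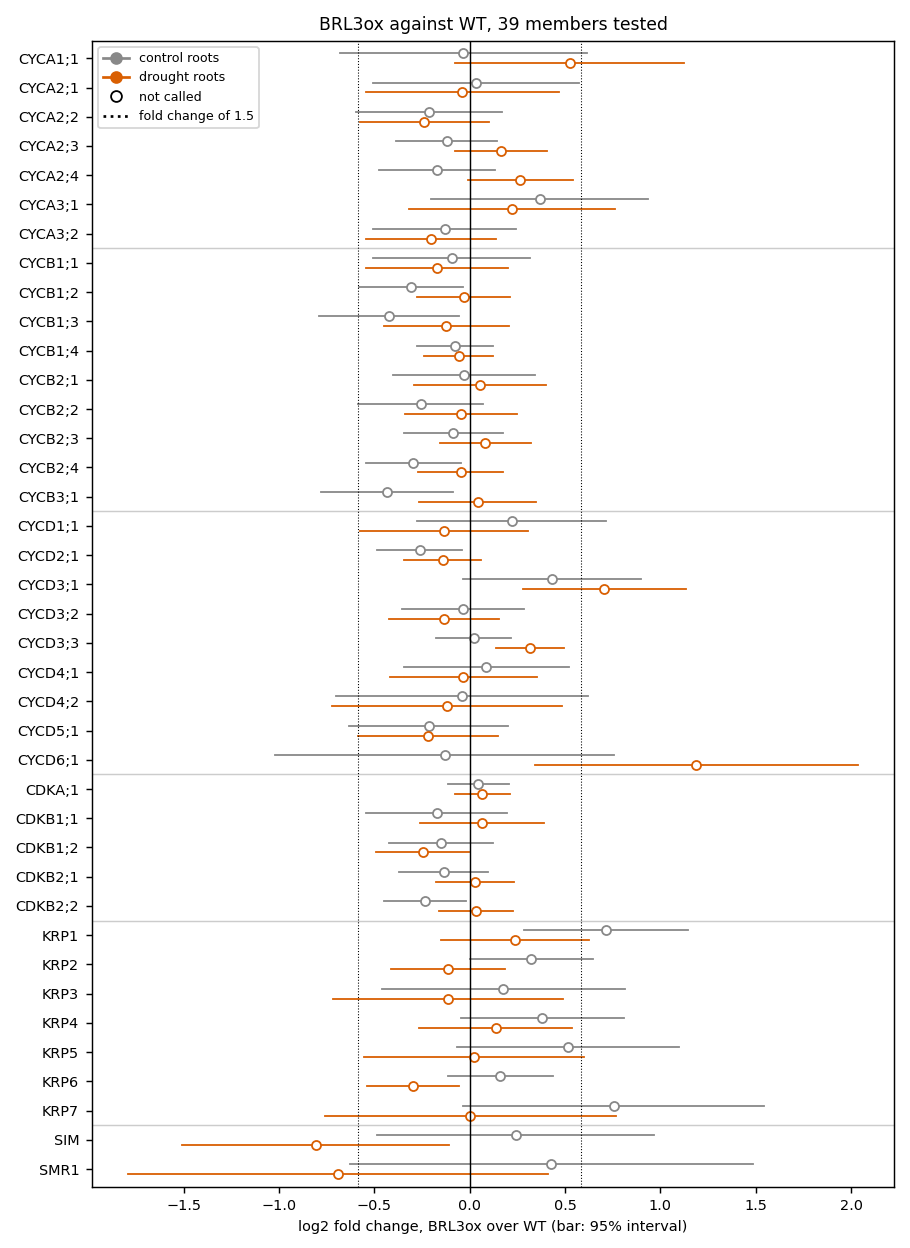
Log2 fold change of *BRL3ox* over WT for the 39 genes tested, in control (grey) and drought roots (orange), with 95% intervals from edgeR. No point is filled, since none was called. In control roots the B-type cyclins lie left of 0 and the inhibitors right of it, and the largest value in drought is AT4G03270 at 1.19.

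The order of the 4 group means rests on the same control samples and describes the same lean in another way. The WT control mean was the highest of the 4 for 9 of 9 B-type cyclins, whereas it was so for 20.5% of all genes tested. The *BRL3ox* control mean was the highest for 8 of 9 inhibitors, and for 30.1% of all genes, in this group of 2 samples. Within WT control roots, replicate 3 had the lowest summed level of the 9 B-type cyclins, 177 CPM against 206 and 209 CPM, while the *BRL3ox* control samples had 161 and 176 CPM.

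In drought, none of the 39 differed between the genotypes by edgeR's quasi-likelihood test, where 3.51% of all genes were called, and 6 (15.4%) had an unadjusted p under 0.05, against 23.1% of all genes. DESeq2 and the likelihood ratio test each called 2, AT4G34160 and AT4G03270. Of the 9 D-type cyclins tested, 6 were lower and 3 higher in *BRL3ox* than in WT drought roots, with a median of -0.12. The 3 with an unadjusted p under 0.05 were those higher in *BRL3ox* roots. The cambium markers were higher there too, with 6 of 7 above 0, a median of 0.69 and 1 called, ANT (AT4G37750), a regulator of organ growth and cambium, and their summed level was 170 to 294 CPM in WT drought and 330 to 447 CPM in *BRL3ox* drought samples. Their part in these values was not tested. AT4G34160 differed by 0.71 (SE 0.19, edgeR FDR = 0.0618), a 1.63-fold higher level, with no overlap between the genotypes. AT4G03270 differed by 1.19 (SE 0.38, edgeR FDR = 0.0981), also without overlap. Without WT control replicate 3 the former was called, and without WT drought replicate 2 the latter. *CYCD3;3* (AT3G50070), a close relative of AT4G34160, was at 19.4, 22.4 and 21.3 CPM in WT control, 20.6 and 22.1 in *BRL3ox* control, 19.8, 18.7 and 19.2 in WT drought, and 24.1, 24.5 and 23.1 CPM in *BRL3ox* drought samples. All *BRL3ox* drought samples were above every other sample. Its difference was 0.31 (SE 0.08, edgeR FDR = 0.0526), a value under the fold change threshold. The lower members were led by KRP6, at -0.30 (SE 0.11, edgeR FDR = 0.134), and SIM, at -0.81 (SE 0.32, edgeR FDR = 0.158), which was -0.34 without WT drought replicate 1. The A- and B-type cyclins with the smallest p were AT1G80370, at 0.27 (SE 0.12, edgeR FDR = 0.231), and AT4G37490, at -0.17 (SE 0.17, edgeR FDR = 0.584).

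The interaction asked whether the drought response itself differed between the genotypes. None of the 39 was called by edgeR's quasi-likelihood test or by DESeq2 or the likelihood ratio test, where 0.951% of all genes were, and 6 (15.4%) had an unadjusted p under 0.05, against 10.8% of all genes. All 9 inhibitors had a negative value, that is a more negative or less positive drought change in *BRL3ox* than in WT roots, with a median of -0.48, and the sign was the same for all 9 whichever of the 11 samples was left out. Of the B-type cyclins 8 had a positive and 1 a negative value, with a median of 0.21. The interaction is the genotype difference in drought minus that at basal conditions. Its signs therefore rest on the same control samples as the basal lean and are not separate from it. In drought the median genotype difference was -0.11 for the inhibitors and -0.05 for the B-type cyclins. Since none was called at the interaction, the inhibitors called only in *BRL3ox* roots were not shown to respond differently. KRP6 had the smallest p of the members, with a value of -0.46 (SE 0.17, edgeR FDR = 0.381). The value of AT4G03270 was 1.32 (SE 0.56, edgeR FDR = 0.435), and it was called without WT drought replicate 2.

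The rest of the cell cycle was read from lists of its other genes. Of 20 genes of DNA replication, all were lower in WT drought roots (median -0.38) and 19 in *BRL3ox* drought roots (median -0.27, -0.09 without *BRL3ox* control replicate 1). In WT roots 0 were called lower (4.84% of all genes) and 11 had an unadjusted p under 0.05 (33.6% of all genes). In *BRL3ox* roots 1 was called lower (6.98% of all genes), CDC6 (AT2G29680), which licenses replication origins, at -0.70 (SE 0.19, edgeR FDR = 0.0265). Of 23 genes of mitosis and cytokinesis, all were lower in WT drought roots (median -0.27, 22 with RLE scaling) and 12 in *BRL3ox* drought roots (median -0.03). In WT roots 1 was called lower (4.84% of all genes) and 10 had an unadjusted p under 0.05 (33.6% of all genes). In *BRL3ox* roots 0 were called lower (6.98% of all genes) and 2 had an unadjusted p under 0.05 (35.1% of all genes). The number lower in *BRL3ox* drought roots was 18 (median -0.10) without *BRL3ox* control replicate 3 and 5 (median 0.08) without *BRL3ox* control replicate 1. At basal conditions 22 of these 23 were lower in *BRL3ox* roots (median -0.27, -0.17 without *BRL3ox* control replicate 3). Of the 23, 0 were called (0.772% of all genes) and 10 had an unadjusted p under 0.05 (16.0% of all genes). Their summed level was 821 to 976 CPM in WT control and 710 and 811 CPM in *BRL3ox* control samples.

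Among activators of the anaphase-promoting complex, which destroys mitotic cyclins, CCS52A1 (AT4G22910) and CCS52A2 (AT4G11920), both known for promoting endoreduplication, fell in *BRL3ox* drought roots by 0.69 (SE 0.15, edgeR FDR = 0.0106) and 0.72 (SE 0.12, edgeR FDR = 0.00262) on the log2 scale. Their WT values were -0.37 (SE 0.14, edgeR FDR = 0.0864) and -0.57 (SE 0.11, edgeR FDR = 0.00679), the second passing the FDR but not the fold change. UVI4 (AT2G42260), an inhibitor of the complex, fell in both genotypes. Of 8 other SMR inhibitors tested, 3 were called lower in *BRL3ox* drought roots (6.98% of all genes) and 1 in WT drought roots (4.84% of all genes). AT2G28330, AT2G37610 and AT5G59360, which passed the filter, were in this list as first drawn up. They were then left out, since no source used here besides that list names them SMR. A further A-type cyclin outside the 40, AT1G77390, known for its role in meiosis, rose with drought in both genotypes, by 0.68 (SE 0.21, edgeR FDR = 0.0445) in WT and 1.36 (SE 0.25, edgeR FDR = 0.00409) in *BRL3ox* roots.

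Markers of dividing regions were read beside the members. Of 13 genes of the root meristem and stem cell niche, 7 were called lower in *BRL3ox* drought roots (6.98% of all genes) and 3 in WT drought roots (4.84% of all genes). The 7 were MGP, FEZ, SMB, SCR, SHR, JKD and RGF1, whereas PLT1, PLT2, PLT3, BBM, WOX5 and AGL42 were not called. Of the 13, 11 were lower and 2 higher in *BRL3ox* drought roots. Their summed level was 198 to 231 CPM in WT control and 237 and 240 CPM in *BRL3ox* control samples. In drought it was 157 to 199 CPM in WT and 162 to 192 CPM in *BRL3ox* samples. At basal conditions 12 were higher in *BRL3ox* roots, 1 was lower and 0 were called (0.772% of all genes). The lower one was PLT3, the highest of the 13 in WT control, with means of 48.2 CPM there and 39.3 CPM in *BRL3ox* control. Both regulators of the ground tissue division, SHR (AT4G37650) and SCR (AT3G54220), were among the 7, while their target *CYCD6;1* was at 1.96 to 2.61 CPM in *BRL3ox* drought samples. All 7 cambium genes were lower in drought in both genotypes, with a median of -0.69 in WT and -0.30 in *BRL3ox* roots. In each genotype 1 of them was called lower, LBD4 (4.84% of all genes in WT and 6.98% in *BRL3ox* roots). Their summed level overlapped between control and drought in both genotypes. That of the 8 lateral root primordium genes was 18.4 and 19.9 CPM in *BRL3ox* control and 12.4 to 14.1 CPM in *BRL3ox* drought samples. Of the 7 of them tested, 6 were lower in *BRL3ox* drought roots and 0 were called lower (6.98% of all genes). The largest part of the sum was ACR4, at 10.8 and 8.99 CPM in *BRL3ox* control and 7.53 to 9.09 CPM in *BRL3ox* drought samples. In WT roots the summed level of the 8 was 13.3 to 15.0 CPM in control and 13.0 to 17.1 CPM in drought samples. There 4 of the 7 genes tested were above 0, with a median of 0.20 and 0 called. None of the root meristem genes was at 0 in all samples. The part of these tissues in the differences described here was not tested.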

How the data were processed

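RNA was extracted from mature roots, and stranded mRNA libraries were sequenced as 50-bp single-end reads. Per the study's methods and processing notes, reads lost 5 bp at their 3′ side before alignment (HISAT2 2.1.0, TAIR10) and counting per gene (HTSeq 0.9.1), and the authors deposited the raw counts with no normalization. The strand option and the annotation release are not given in the sources used here. The classes of reads that HTSeq did not assign to a gene (10.5% to 12.9% of all counts) were left out.

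Counts were filtered with filterByExpr, TMM-normalized and fitted with 1 coefficient per group over all 11 samples (edgeR 4.0.16, limma 3.58.1, R 4.3.3, estimateDisp, glmQLFit and glmQLFTest). The SE is the fold change divided by the square root of F. The common biological coefficient of variation was 0.159, with 7 residual degrees of freedom. No replicates were copies of 1 library, with a chi-square per degree of freedom of 8.28 to 42.8.

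The rule for the members held gene identities alone, but they and the lists were chosen with earlier results of these data known. Genes were named if called, if highest per family in CPM per kilobase, or if smallest in p per family and comparison. Genes named besides these, from the other lists or from the other tools' calls, were picked after their values were seen. Gene models, lengths, shared 45-base stretches and promoters came from RefSeq TAIR10.1. Alternatives were RLE scaling, DESeq2 1.42.0, the likelihood ratio test, 2 other filters, only the groups compared, a fold change over 2, robust fitting, a replicate block and leaving out each sample. Of the *BRL3ox* control group, replicate 2 was not analysed here.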

Additional observations from a re-analysis of the deposited data

Results flagged for a closer look

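SMR7 (AT3G27630), an inhibitor of the SIM family outside the 40 genes, was picked out because it passed the unadjusted p under 0.0025 set for the interaction. Of all genes tested, 0.951% passed it too. It was at 0.525, 0.576 and 0.436 CPM in WT control, 1.15 and 0.971 in *BRL3ox* control, 0.807, 0.727 and 0.648 in WT drought, and 0.451, 0.507 and 0.561 CPM in *BRL3ox* drought samples. Drought samples were above the control samples in WT and below them in *BRL3ox* roots, without overlap in either genotype. These are the values by which the gene was picked, so the lack of overlap is not separate evidence. The response of *BRL3ox* minus that of WT was -1.55 (SE 0.39, edgeR's quasi-likelihood test, unadjusted p = 0.00236, FDR = 0.257). Counts of this gene were between 8 and 24 per sample.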

How the results depend on the processing

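The number of members called was also found under 9 other settings and in 11 fits that left out 1 sample each. For *BRL3ox* against WT at basal conditions it went from 0 to 1 with DESeq2 and with the likelihood ratio test, and was 0 throughout the fits with a sample left out. In drought it went from 0 to 2 with DESeq2, with the likelihood ratio test and with the replicate block, and ranged from 0 to 1 when samples were left out. The WT drought response, with 6 calls, had 7 with DESeq2 and with the likelihood ratio test, 3 when the model held just its own groups, 0 with a fold change over 2, and 1 to 9 when samples were left out. The *BRL3ox* drought response, with 5 calls, had 7 with DESeq2, with the likelihood ratio test and when the model held just its own groups, 3 with a fold change over 2, and 2 to 6 when samples were left out. The interaction, with 0 calls, had 0 to 1 when samples were left out. Values of single genes were found anew for the called members and for the smallest p of each family in the pairwise comparisons, and none of these changed sign. Other named values were not.

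In the check of pairing, deviations from group means of samples with the same replicate number correlated between -0.0881 and 0.412 over 15 pairs, with 11 above 0.1, and 8 of 11 samples correlated best with their own number, a hint of pairing from the data, not the design. The numbers were not taken as pairing, since not every pair was above 0.1 and no label ties a number to a shared planting or batch. With the replicate block the calls were 0 at basal conditions, 2 in drought (AT4G34160 and AT4G03270), 7 and 5 for the WT and *BRL3ox* responses, and 0 for the interaction. Genes at the level of SMR1, under 2.5 CPM, rest on few counts.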
